A study of Amolops torrentis with 15 samples.

Results

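The genes described here are the cytosolic ribosomal protein genes of the female torrent frog (Amolops torrentis) brain. They were taken as every deposited transcript feature whose Swiss-Prot description begins with 40S ribosomal protein, 60S ribosomal protein or 60S acidic ribosomal protein, with features of 1 gene symbol added together. The rule uses names only and no measured value. It found 75 genes on 100 features, out of 36374 genes on 44351 features in the whole table. Of these, 28 belong to the 40S subunit, 44 to the 60S subunit, and 3 (RPLP0, RPLP1 and RPLP2) form the acidic stalk. All 75 passed the filter on low values, a mean FPKM of at least 1. FPKM is a fragment count divided by the feature's length and the size of its library.

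The ribosome translates mRNA into protein. Its small, 40S subunit reads the codons and its large, 60S subunit joins the amino acids, and each is a core of ribosomal RNA clad in many small, mostly basic proteins, nearly all present once per particle. In vertebrates the mRNAs of these proteins carry a 5′ terminal oligopyrimidine tract that puts their translation under the control of mTOR kinase. In neurons, phosphorylation of one of them, RPS6, is widely used as a marker of recent activity, but that mark lies on the protein and is not measured by RNA sequencing.

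The study measured whole-brain RNA of females in 15 libraries, 3 for each stimulus label. The groups are visual, acoustic and audiovisual, and 2 comparison groups labelled dark contrast and blank contrast. The series title calls the frogs females, and no genotype or drug is given for any group. The labels do not state the frogs' age, how long a stimulus lasted, what the contrast groups were shown, or whether a sample is 1 brain or a pool, so p-values measure only the spread between samples, which may be technical. Total estimated counts ran from 12071194 in dark contrast 1 to 16829356 in audiovisual 3. Neuron markers were present in these libraries, which are labelled whole brain: 10 of 11 listed genes were measured, among them SNAP25 and SYT1, with summed levels of 5170 to 5790 CPM (counts scaled to a common library size by TMM). All 6 oligodendrocyte markers were measured, 4 of 7 astrocyte markers (GFAP, AQP4 and S100B were not analysed here) and 1 of 7 microglial markers, C1QC.

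Of a list of 79 standard vertebrate ribosomal protein symbols, 71 were among the members. The other 8, among them RPS4X, RPS21, RPS24, RPS27A, FAU, RPL18 and RPL41, were outside the rule or not analysed here. RPL18 has a feature described without the 60S prefix, with a mean of 1015 FPKM. The 4 members beyond the standard list are RPL22L1, RPL3L, RPL7L1 and RPS4Y1. The name RPS4Y1 comes from an orangutan Swiss-Prot entry of a gene that is Y-linked in primates, and the closest entry in the deposited NR description is an RPS4-like protein of opossum. Symbols are those of the nearest Swiss-Prot entry: 19 of the 100 features matched an amphibian entry and 4 an invertebrate one (RPL8, RPL31 and both larger RPS27 features). For 6 features the NR description names another protein and the identity is uncertain: RPL22L1 (initiation factor 5A-2), RPL26, RPS13, RPS19 and 2 of the 3 features of RPS9, the main one included.

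Ribosomal protein transcripts were among the most abundant in these brains. The median member had a mean of 1653 FPKM, against 5.54 FPKM for the median of all genes tested, and 51 of the 100 genes with the highest mean FPKM were members. The 8 highest all lie on features of 333 to 417 bases. RPS29, a zinc-binding protein of the small subunit, led with 10840 FPKM. RPS28, which lies near the mRNA exit of the small subunit, followed with 8724 FPKM, and RPL35, at the mouth of the peptide exit tunnel, with 7597 FPKM. RPL36A, which contacts the tRNA leaving the ribosome, had 6501 FPKM and RPL36 had 6489 FPKM. The zinc-binding RPL37A and RPL37 had 5752 and 5425 FPKM. RPL39, a very small protein of the tunnel wall, had 3939 FPKM.

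The lowest member was RPL7L1, a paralog of RPL7 that in mammals acts in ribosome assembly, with a mean of 28.9 FPKM. RPL3L, which in mammals replaces RPL3 in skeletal and heart muscle ribosomes, had 71.5 FPKM, against 1339 FPKM for RPL3 itself. Next came RPL38, a small 60S protein that in mice is needed for translation of Hox mRNAs, with 182 FPKM. RPL22L1, a paralog of RPL22, had 212 FPKM and RPL22 had 483 FPKM. The highest and lowest members differed 375-fold in FPKM.

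Part of that range lies in the unit. Among features with a mean count over 100, members or not, the deposited FPKM of those of up to 400 bases had a median of 3.05 times the value that the count per kilobase and library total gives. For those over 2000 bases the median was 0.968 times that value. With plain CPM per kilobase of the main feature, the range was 150-fold, and 24.5-fold without the paralogs RPL3L, RPL7L1 and RPL22L1, against 59.5-fold in FPKM without them. RPS29 still led with 3770 CPM per kilobase, and RPL39 dropped to rank 41 of 75. Across the 75 genes, log2 length and log2 CPM per kilobase had a correlation of -0.53. Length also divides the CPM per kilobase, so a negative value is partly built in and does not show that shorter genes are more abundant. The value is only a description, since the points share libraries and assembly.

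Most members held a steady level across the 15 libraries. The median SD of log2 CPM was 0.148 over members. It was 0.427 over all genes tested and 0.184 over the 5793 genes with a mean CPM at least that of the lowest member. In 61 of the 75 genes the SD was under 0.2. Summed 40S counts were 0.669 to 0.723 times the summed 60S and stalk counts in every library, with a median of 0.694.

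The steadiest member was RPS3A, a protein of the 40S platform, with an SD of 0.085. Its CPM was 1064, 1334 and 1274 in visual brains, 1218, 1280 and 1243 in acoustic brains and 1214, 1148 and 1299 in audiovisual brains. It was 1285, 1190 and 1282 in dark contrast brains and 1306, 1307 and 1242 in blank contrast brains. Only visual 1 lay below 1100 CPM, and all groups overlapped. RPL9 (SD 0.0863), RPL5-A (SD 0.0908), which carries the 5S rRNA into the large subunit, and RPS4Y1 (SD 0.0916) were the next steadiest.

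Only 4 members had an SD over 0.3, and in each the spread had another shape. RPL3L varied most, with an SD of 0.769. It had 71.9, 105 and 102 CPM in visual brains, 99.5, 26.8 and 183 CPM in acoustic brains and 46.8, 76.9 and 35.5 CPM in audiovisual brains. It had 140, 83.4 and 115 CPM in dark contrast brains and 158, 70.3 and 106 CPM in blank contrast brains. Its lowest and its highest value both came from acoustic brains. CKM, the muscle creatine kinase and the only 1 of 8 muscle markers measured, was at 1.1 to 32.7 CPM over the 15 libraries, with its highest value in visual 2, where RPL3L stood at 105 CPM; the part of muscle RNA in the RPL3L values was not tested.

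RPS29 (SD 0.497) was far lower in 1 library than in the rest. It had 1617, 1370 and 491 CPM in visual brains, 1712, 1193 and 1645 CPM in acoustic brains and 1132, 1409 and 1760 CPM in audiovisual brains. It had 2156, 1458 and 1104 CPM in dark contrast brains and 1658, 1182 and 1032 CPM in blank contrast brains. The value of visual 3 was under all the other 14, and the other visual libraries lay within the range of every other group.

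RPL39 (SD 0.47) was the member with the smallest p in the test over all groups. It had 244, 224 and 182 CPM in visual brains, 413, 431 and 346 CPM in acoustic brains and 206, 480 and 342 CPM in audiovisual brains. It had 568, 357 and 332 CPM in dark contrast brains and 356, 412 and 418 CPM in blank contrast brains. All 3 visual libraries were below every acoustic, dark contrast and blank contrast library, while audiovisual 1 lay among them. RPL38 (SD 0.436) was high in 2 libraries: dark contrast 1 held 314 CPM and acoustic 2 held 242 CPM. It was between 93.8 and 191 CPM in the other 13.

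**Figure D1:**
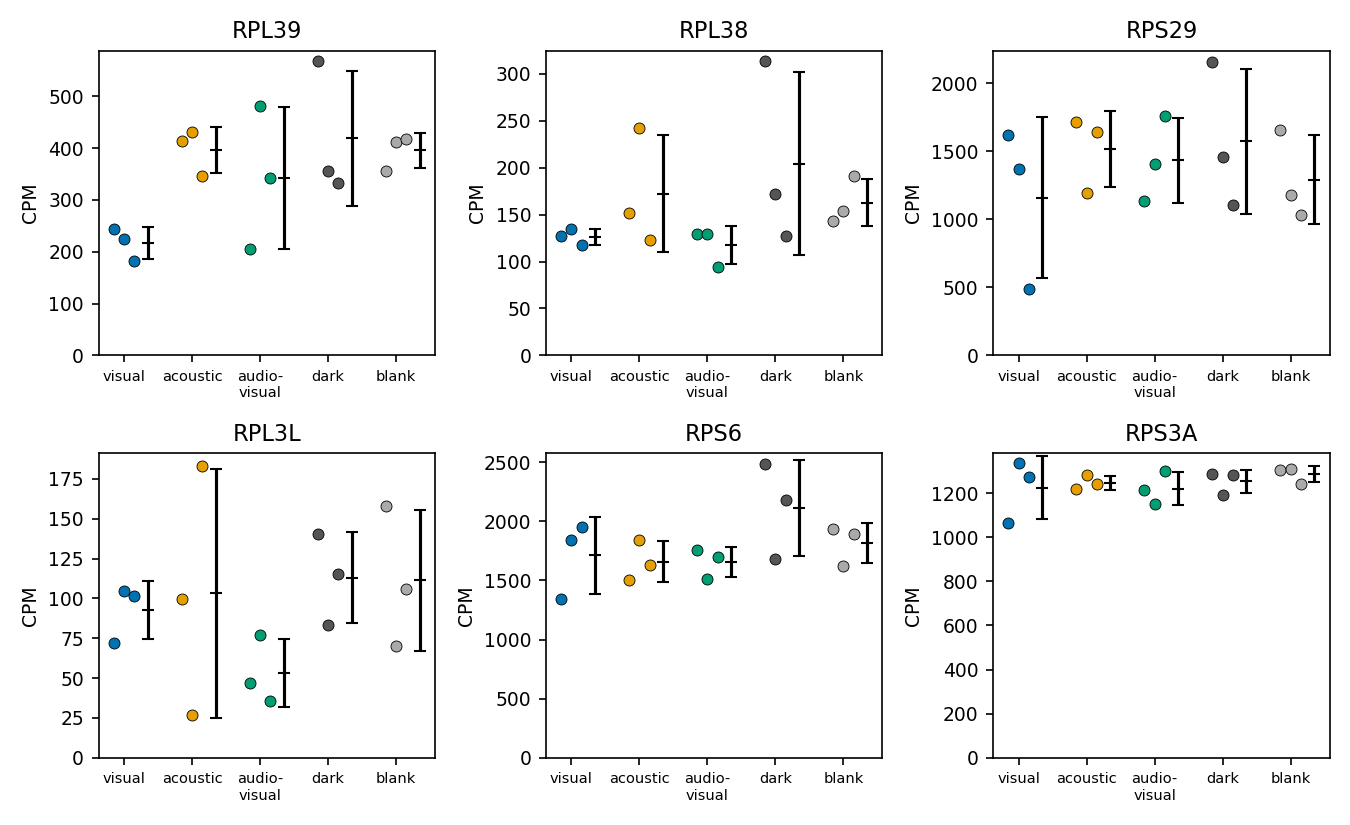
CPM (vertical axis, from 0) of 6 members in each library (points), by group along the horizontal axis, with the group mean and SD (bars, n = 3). RPL39 is low in all visual libraries, RPS29 in visual 3 alone, RPL38 and RPS6 are highest in dark contrast 1, RPL3L varies within groups, and RPS3A is level.

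The 75 genes together took a similar share of each library. Their share of scaled counts was 6.40%, 7.47% and 6.38% in visual brains, 6.75%, 7.06% and 6.83% in acoustic brains, and 6.56%, 6.13% and 6.64% in audiovisual brains. It was 8.48%, 6.17% and 6.80% in dark contrast brains and 6.45%, 7.16% and 6.89% in blank contrast brains. Audiovisual and acoustic brains did not overlap, at 6.44 ± 0.274% and 6.88 ± 0.161% (SD, n = 3 each), and all other pairs of groups did. For scale, 10 pairs were compared, and in this pair 5.18% of all genes were apart and lower and 5.16% apart and higher. In RNA from a whole brain, fewer cells of a type and less RNA per cell cannot be told apart.

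**Figure D2:**
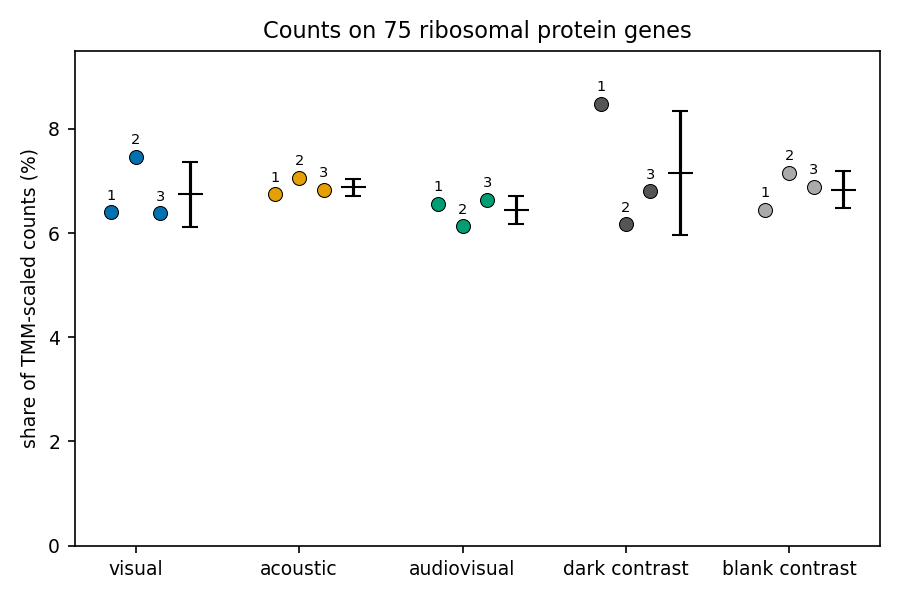
Share of TMM-scaled counts on the 75 ribosomal protein genes (%, vertical axis from 0) in each library (points, numbered by replicate) of each group, with the group mean and SD (bars, n = 3). Dark contrast 1, at 8.48%, stands above the other 14 libraries, and the audiovisual points lie below the acoustic ones.

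One library stood apart for these genes. In dark contrast 1, 73 of the 75 members were above their own 15-library mean, with a median of 0.31 on the log2 scale, and 52 of the 75 had their highest value there, against 9.61% of all genes. It was also the smallest library by total counts. Dark contrast 3 was close in size, with 12143927 counts, and had a median of 0.003 over members. Without dark contrast 1 the dark contrast share averaged 6.48%, below the blank contrast mean of 6.83%. Among the highest members in dark contrast 1 were RPS28, with 1234 CPM against 679 to 856 CPM in the other 14 libraries, and RPL35, with 1944 CPM against 1110 to 1561 CPM. RPL36, by contrast, was at 1172 CPM there and at 1120 CPM in visual 2.

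Feature length moved with this library. The median deviation in dark contrast 1 was 0.35 for the 26 members whose main feature has up to 600 bases, 0.32 for the 24 of 601 to 1000 bases and 0.23 for the 25 longer ones. Other genes of comparable length, among those with a mean over 20 CPM, went the same way by less. The 178 non-members of up to 600 bases had a median of 0.23 there, and the 626 of 601 to 1000 bases had 0.12. The 1372 non-members over 4000 bases, longer than any member feature, had a median of -0.11. With the length trend of each library removed, the members' median in dark contrast 1 was 0.20. Endothelial markers (5 of 6 measured) were also highest there, at a summed 68.5 CPM, against 35.5 to 61.1 CPM over the libraries of the other 4 groups. Of 10 marker lists of cell types, only this 1 was highest in dark contrast 1, against 9.61% of all genes. In the other lists its rank among the 15 libraries lay between 4 (oligodendrocyte) and 14 (neuron). The part of length, library size and vessel cells in the level of dark contrast 1 was not tested. Each comparison that uses dark contrast brains is therefore given with and without dark contrast 1.

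**Figure D3:**
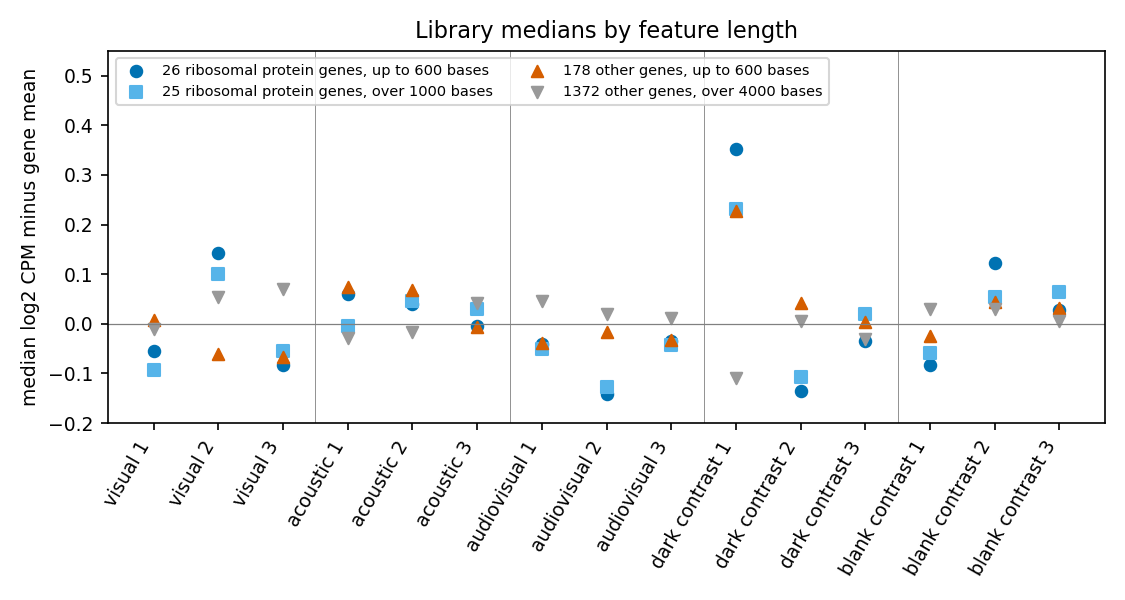
Median of log2 CPM minus each gene's own mean (vertical axis) in each library (horizontal axis) for short and long ribosomal protein genes and for short and long other genes. In dark contrast 1 the short members are at 0.35, the long members and the short other genes at 0.23, and the long other genes at -0.11.

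Smaller shifts shared by most members were seen in other libraries too. In visual 2, 68 of the 75 were above their own mean, with a median of 0.15. In audiovisual 2 only 5 were above it, with a median of -0.13, and 18 members had their lowest value there, against 6.02% of all genes. In dark contrast 2 only 6 were above their mean, with a median of -0.13, and 13 were lowest there, against 6.33% of all genes. The 40S and 60S medians differed by at most 0.061 in any library.

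**Figure D4:**
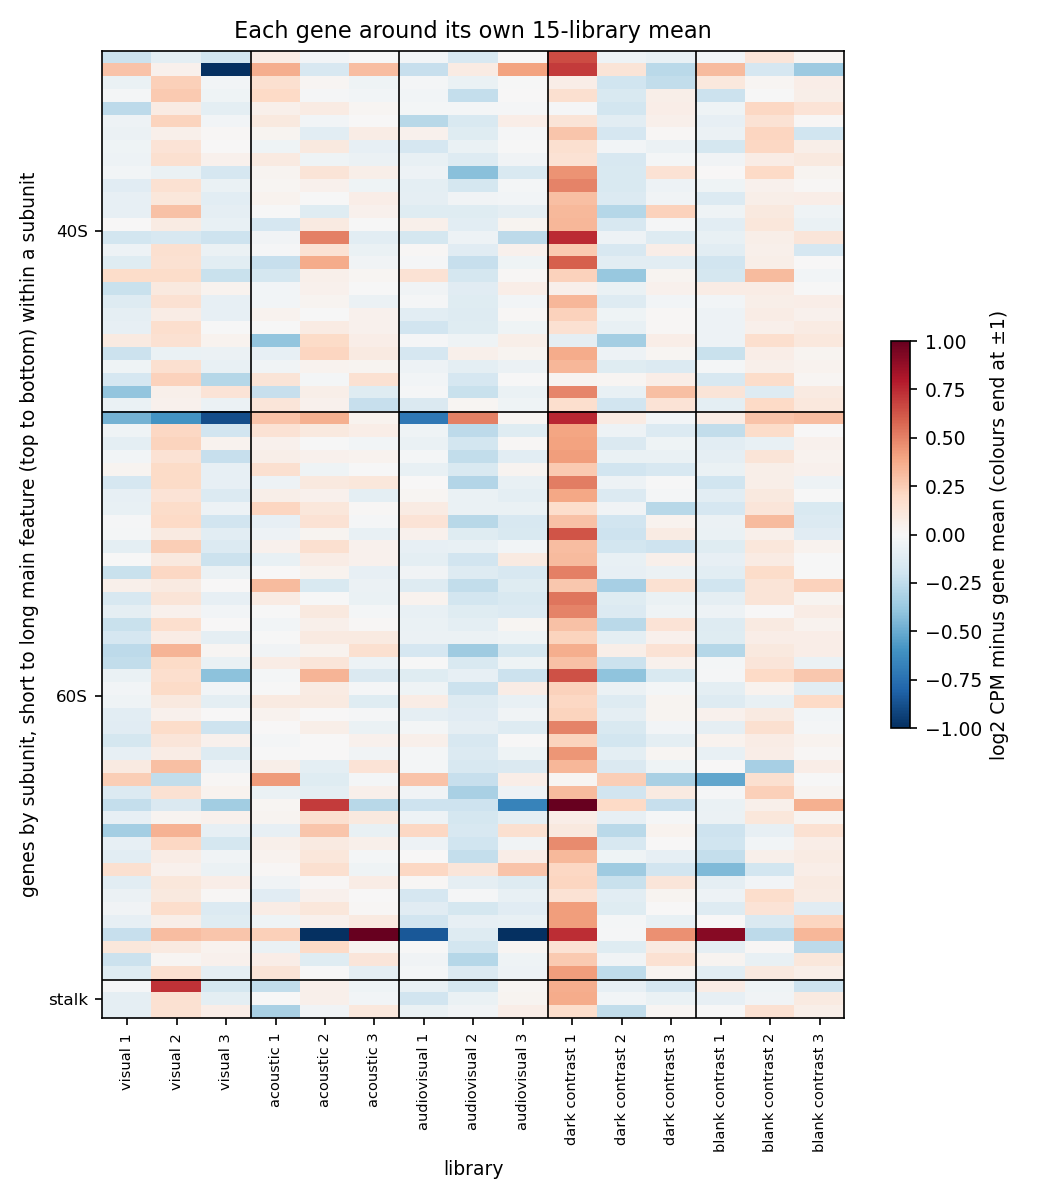
Log2 CPM of each of the 75 genes (rows, by subunit and length) minus its own mean, in the 15 libraries (columns, by group); colours end at 1 and -1. The column of dark contrast 1 is red for nearly all genes, visual 2 is mostly pale red, and audiovisual 2 and dark contrast 2 are mostly pale blue.

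No ribosomal protein gene passed the test in any comparison of groups. The quasi-likelihood test of edgeR, fitted to all 34978 genes with an adjusted p under 0.05 as the threshold, called 0 of 75 members in each of the 12 comparisons and in the F test over all 5 groups, against 0.0% of all genes in each. DESeq2 and limma also called 0 members in each, while DESeq2 called 10 to 149 other genes per comparison and limma 0. In the F test 1 member, RPL39, had an unadjusted p under 0.05 (edgeR adjusted p = 0.996), against 4.86% of all genes. The standard error of a member's log2 fold change between 2 groups had a median of 0.124 and ran from 0.075 to 0.501, so the steadiest genes were measured far more tightly than RPL3L. The tests below therefore describe sizes and directions, none of which is a called difference. For a member named for the smallest p in a test, ranges apart follow largely from that choice and add no support. Members are measured in the same libraries, so 1 library that is high or low for most of them is counted many times in each count of directions. Each contrast group enters several comparisons.

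Visual brains were set against both contrast groups to ask what a seen stimulus does. Against dark contrast, 55 of 75 members had a log2 fold change below 0, against 50.6% of all genes, and the members' median was -0.077, against -0.006 for all genes. The direction turned when dark contrast 1 was left out: 19 of 75 were below 0 and the median was 0.065. An unadjusted p under 0.05 was reached by 3 members, against 5.47% of all genes: RPL39, RPS28 and RPL38, all lower in visual brains. With 1 library left out this count was lowest without visual 1, at 1, against 5.84% of all genes. It was highest without dark contrast 2, at 11, against 6.16%. The log2 fold changes of RPS28 and RPL38 shrank to -0.097 and -0.24 without dark contrast 1. RPL39 averaged 217 ± 31.4 CPM in visual brains and 419 ± 130 CPM in dark contrast brains (SD, n = 3 each). That is a log2 fold change of -0.95 (SE 0.25, edgeR adjusted p = 0.886), and it was -0.67 without dark contrast 1. The ranges did not overlap, lower in visual brains, for 4 members (RPL39, RPS16, RPS23 and RPS28), against 5.39% of all genes, and higher for 0, against 5.2%.

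Against blank contrast, 45 of 75 members were below 0, against 49.5% of all genes, with a median of -0.019 over members and 0.003 over all genes. The direction turned on single libraries: 27 were below 0 without visual 1, 29 without visual 3, 28 without blank contrast 2 and 67 without visual 2, with medians between -0.094 and 0.024. It also turned with limma, with 33 of 75 below 0 and a median of 0.012. RPL39 was again the member with the smallest p. Its 217 ± 31.4 CPM in visual brains stood against 395 ± 34.4 CPM in blank contrast brains (SD, n = 3 each), a log2 fold change of -0.87 (SE 0.25, edgeR adjusted p = 1.0). It was the only member with an unadjusted p under 0.05, against 4.59% of all genes. With 1 library left out, its log2 fold change stayed between -0.962 and -0.755. Non-overlapping and lower in visual brains were 5 members (among them RPL38, RPL39, RPS16 and RPS28), against 4.96% of all genes, and 1 was higher, RPL4-B, a protein of the tunnel wall, against 5.29%. The log2 fold change of RPS28 lay between -0.206 and -0.034 in the settings that keep all libraries.

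Acoustic brains were nearly level with blank contrast brains. Of 75 members 32 were below 0, against 49.7% of all genes, and the medians were 0.004 over members and 0.002 over all genes. The count below 0 was 50 without blank contrast 1 and 20 without blank contrast 2, with medians of -0.024 and 0.049. No member had an unadjusted p under 0.05, against 4.63% of all genes, and no member's ranges were apart, against 4.89% lower and 5.04% higher among all genes. The smallest p belonged to RPL4-B, with 1120 ± 106 CPM in acoustic brains and 997 ± 95.1 CPM in blank contrast brains (SD, n = 3 each). Members lay between -0.15 for RPLP0, the scaffold of the stalk, and 0.23 for RPS29.

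Against dark contrast, 58 of 75 members were below 0 in acoustic brains, against 50.7% of all genes, with a median of -0.05 over members and -0.005 over all genes. Leaving out dark contrast 1 left only 4 of 75 below 0 and gave a median of 0.095. The only member with an unadjusted p under 0.05, against 5.06% of all genes, was RPS6, the substrate of S6 kinase. Without dark contrast 1 there were 4 such members, against 5.16% of all genes, and without dark contrast 2 also 4, against 5.64%. There were 0 without acoustic 3, against 4.53%, and 0 with DESeq2, against 5.36%. RPS6 had 1507, 1845 and 1627 CPM in acoustic brains and 2481, 1679 and 2180 CPM in dark contrast brains. The groups overlapped, because dark contrast 2 lay below acoustic 2. Its log2 fold change was -0.35 (SE 0.15, edgeR adjusted p = 0.965), and -0.21 without dark contrast 1. No member's ranges were apart, against 5.07% lower and 5.08% higher among all genes.

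Audiovisual brains had a mean share of ribosomal protein counts of 6.44%, the lowest of the 5 groups with all libraries in. Without visual 2 the mean share of visual brains was lower still, at 6.39%. It was 6.60% in audiovisual brains without audiovisual 2 and 6.48% in dark contrast brains without dark contrast 1. Against acoustic brains, 68 of 75 members had a log2 fold change below 0, against 50.3% of all genes, and the median was -0.087, against -0.003. This comparison uses no dark contrast library. The ranges were apart, lower in audiovisual brains, for 16 members, against 5.18% of all genes, and higher for 0, against 5.16%. They come from both subunits, among them RPS7, RPS10, RPS14 and RPS19 of the 40S, and RPL5-A, RPL7A, RPL9, RPL10A, RPL12, RPL21, RPL22, RPL28, RPL34, RPL37 and RPL37A of the 60S. With 1 library left out at a time, 62 to 71 members were below 0, and the median was between -0.117 and -0.067. Of 10 marker lists of cell types, 1 was apart between these groups, against 5.18% of all genes apart and lower and 5.16% apart and higher. It was that of inner ear hair cells (3 of 6 measured: MYO7A, OTOF and POU4F3). Its summed levels were 104 to 126 CPM in audiovisual brains and 78.4 to 92.4 CPM in acoustic brains. Pituitary markers (2 of 10 measured, CGA and POMC) overlapped, with 55.7 to 9590 CPM in audiovisual brains and 168 to 1940 CPM in acoustic brains, as did the other 8 lists. In the remaining groups the hair cell list had 92.7 to 113 CPM in visual, 74.0 to 82.1 CPM in dark contrast and 87.6 to 99.1 CPM in blank contrast brains. The pituitary list had 19.7 to 112 CPM in visual, 403 to 5060 CPM in dark contrast and 22.3 to 70.6 CPM in blank contrast brains. The part of these cells in the differences between groups was not tested.

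Log2 fold changes of single genes lay between -0.96 for RPL3L and 0.16 for RPL7L1. RPL3L, whose values are given above, had an SE of 0.50 and overlapping groups (edgeR adjusted p = 0.983). RPL38 had -0.55 (SE 0.29, edgeR adjusted p = 0.983), with 117 ± 20.4 CPM in audiovisual brains and 172 ± 62.3 CPM in acoustic brains (SD, n = 3 each). RPL5-A, with the smallest p, had 853, 786 and 829 CPM in audiovisual brains, against 904, 989 and 948 CPM in acoustic brains. All audiovisual values were below all acoustic ones. Its log2 fold change of -0.20 (SE 0.075, edgeR adjusted p = 0.969) was the only one with an unadjusted p under 0.05, against 5.01% of all genes. RPL12, at the base of the stalk, had 942, 827 and 938 CPM in audiovisual brains and 1031, 1083 and 1183 CPM in acoustic brains. There too the groups were apart, and audiovisual 2 was the lowest of the 6 libraries.

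Against visual brains, 65 of 75 members were below 0 in audiovisual brains, against 50.7% of all genes, with a median of -0.067 over members and -0.005 over all genes. This rested on 1 library: without visual 2, 33 of 75 were below 0 and the median was 0.007. RPL39 went the other way from most, with 342 ± 137 CPM in audiovisual brains and 217 ± 31.4 CPM in visual brains (SD, n = 3 each), a log2 fold change of 0.66 (SE 0.25, edgeR adjusted p = 1.0). It was the only member with an unadjusted p under 0.05, against 4.63% of all genes, and its groups overlapped because audiovisual 1 was at 206 CPM. Apart and lower in audiovisual brains were 3 members (RPL23A, RPL4-B and RPS9), against 5.01% of all genes, and 0 were higher, against 4.79%.

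Against blank contrast, 66 of 75 members were below 0 in audiovisual brains, against 49.9% of all genes, with a median of -0.083 over members and 0.0 over all genes. With 1 library left out the median stayed between -0.121 and -0.05. The ranges were apart and lower for 10 members (among them RPL29, RPL38, RPL6, RPL7A, RPL9, RPS9, RPS14 and RPS25), against 4.93% of all genes. They were apart and higher for 1, the assembly paralog RPL7L1, against 5.08%. RPL7L1 had 32.1, 30.2 and 33.8 CPM in audiovisual brains and 20.5, 24.4 and 29.0 CPM in blank contrast brains. Its log2 fold change was 0.38 (SE 0.16, edgeR adjusted p = 1.0), and no other member had an unadjusted p under 0.05, against 4.58% of all genes.

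Against dark contrast, 67 of 75 members were below 0 in audiovisual brains, against 51.5% of all genes, with a median of -0.14 over members and -0.012 over all genes. Leaving out dark contrast 1 made this 41 of 75, with a median of -0.008. An unadjusted p under 0.05 was reached by 6 members, all lower in audiovisual brains, against 5.4% of all genes in either direction. Among the 6 were RPL12, RPL38, RPL3, RPS6 and RPL3L. The number that reached it depended on the dark contrast libraries: 2 without dark contrast 1, against 5.01% of all genes in that setting. It was 30 without dark contrast 2, against 6.33%, and 13 without dark contrast 3, against 5.16%. The log2 fold changes of RPL38 and RPS6 were -0.344 and -0.214 without dark contrast 1. RPL12 averaged 902 ± 65.2 CPM in audiovisual brains and 1210 ± 133 CPM in dark contrast brains (SD, n = 3 each), with ranges apart and a log2 fold change of -0.42 (SE 0.14, edgeR adjusted p = 0.909). It was -0.33 without dark contrast 1. RPL3L and RPS12 were the other members with ranges apart, 3 in all, against 5.39% of all genes, and 0 were apart and higher, against 5.32%.

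Between the single-cue groups RPL39 had the log2 fold change farthest from 0. Acoustic against visual brains, 25 of 75 members were below 0, against 50.4% of all genes, and the median was 0.025 over members and -0.003 over all genes. The direction turned on single visual libraries: 43 were below 0 without visual 1, 41 without visual 3 and 7 without visual 2, with medians between -0.01 and 0.098. RPL39 averaged 396 ± 45 CPM in acoustic brains and 217 ± 31.4 CPM in visual brains (SD, n = 3 each), without overlap, a log2 fold change of 0.87 (SE 0.25, edgeR adjusted p = 0.959). No other member had an unadjusted p under 0.05, against 5.08% of all genes. Ranges were apart and higher in acoustic brains for 4 members, RPL39, RPS16 and RPS28 among them, against 5.19% of all genes, and 0 were lower, against 5.41%. The log2 fold change of RPS28 lay between 0.026 and 0.183 in the settings that keep all libraries.

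Between the 2 contrast groups, dark against blank, the direction turned on 1 library. Below 0 were 19 of 75 members, against 48.7% of all genes, with a median of 0.079 over members and 0.01 over all genes. Without dark contrast 1, 64 of 75 were below 0 and the median was -0.079. Without dark contrast 2, 5 were below 0 and the median was 0.163, and the count was 30 without blank contrast 1 and 12 without blank contrast 2. No member had an unadjusted p under 0.05, against 5.64% of all genes, and none had ranges apart, against 5.58% lower and 5.61% higher. Without dark contrast 2, 8 members had an unadjusted p under 0.05, against 6.4% of all genes. Without dark contrast 1, 2 did, against 5.36%.

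All 3 stimulus groups together were set against both contrast groups. Below 0 were 61 of 75 members, against 50.7% of all genes, with a median of -0.052 over members and -0.003 over all genes. The same values without dark contrast 1 were 32 of 75 and 0.011. An unadjusted p under 0.05 was reached by 5 members, against 4.72% of all genes. Of these 4, among them RPL39, RPS6 and RPL38, were lower and RPL7L1 was higher in stimulus brains. With 1 library left out this count lay between 1 and 12. It was 1 without dark contrast 1, among others, against 4.64% of all genes, and 12 without dark contrast 2, against 5.13%. The log2 fold changes of RPL39, RPS6 and RPL38 were -0.254, -0.156 and -0.186 without dark contrast 1. No member had ranges apart, against 0.02% lower and 0.0114% higher among all genes.

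In the comparison of audiovisual brains with the sum of the acoustic and visual differences, 56 of 75 members were below 0, against 50.6% of all genes, and the median was -0.032 over members and -0.005 over all genes. This too turned on single libraries: 26 were below 0 without visual 2 (median 0.029), 32 without dark contrast 2 and 68 without dark contrast 1 (median -0.115). No member reached an unadjusted p under 0.05 with all libraries in, against 4.56% of all genes. With 1 library left out 0 to 3 did, the 3 without visual 1, against 4.74%. RPL39 had the smallest p, with an estimate of 0.70 (SE 0.34, edgeR adjusted p = 1.0).

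**Figure D5:**
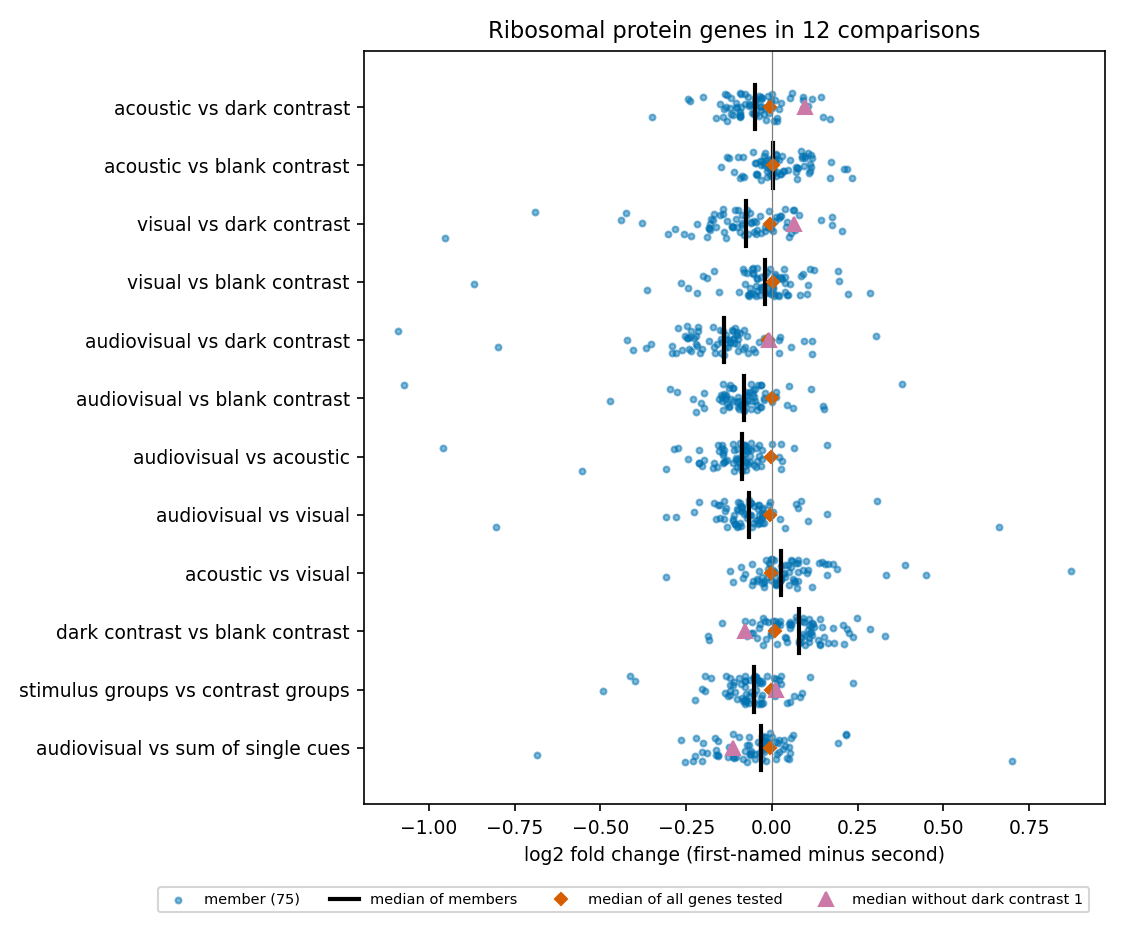
Log2 fold change of the 75 members (points) in the 12 comparisons (rows, first-named group minus the second), with the median of members (black bar), of all genes tested (orange diamond) and of members without dark contrast 1 (pink triangle). All 4 rows with audiovisual brains against another group have a member median below 0, and without dark contrast 1 the medians of visual and acoustic against dark contrast lie above 0.

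The stalk proteins, which recruit elongation factors to the ribosome, were no exception. RPLP0 averaged 1580 CPM over the 15 libraries, RPLP1 862 CPM and RPLP2 1259 CPM. RPLP1 had 1 high library, visual 2, with 1399 CPM against 714 to 1094 CPM in the other 14. RPLP2 was highest in dark contrast 1, with 1622 CPM against 1096 to 1391 CPM elsewhere. The edgeR F test over all groups gave an adjusted p of 0.996 for each of the 3 genes. Among the paralogs, RPL22L1 had 187, 133 and 159 CPM in visual brains, 212, 145 and 156 CPM in acoustic brains and 192, 135 and 164 CPM in audiovisual brains. It had 160, 187 and 125 CPM in dark contrast brains and 110, 176 and 157 CPM in blank contrast brains, and all groups overlapped.

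For 19 of the 75 genes the counts lie on several assembled features, and the way they were divided differed between libraries even where the gene's sum was steady. The second feature of RPL4-B took 0.0497% of the gene's counts in acoustic 1 and 51.7% in acoustic 2, while the gene as a whole had 1028 and 1237 CPM there. For RPL19 the second feature took 3.84% in dark contrast 1 and 45.2% in dark contrast 2, and the SD of the gene's log2 CPM was 0.0985. In all, 4 of 25 minor features, that of RPL26 included, had a share that ranged over more than 20 percentage points. By contrast the minor feature of RPL3 held 21.3% to 24.0% in all libraries. Values of single features of these genes are therefore uncertain, and the sums are used throughout. Why the division differed between libraries was not tested.

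Genes that make, feed or control the ribosome were read from lists of translation factors, assembly factors and mTOR signalling genes. The edgeR test called 0 of them in any of the 12 comparisons at an adjusted p under 0.05. Over the 15 libraries the median SD of log2 CPM was 0.142 for 44 initiation factors, close to the ribosomal proteins' 0.148. It was 0.242 for 11 elongation and termination factors, 0.226 for 69 ribosome biogenesis genes, 0.212 for 24 mTOR and S6 kinase pathway genes and 0.124 for 5 ribosome-associated genes. In dark contrast 1, the library where ribosomal proteins had a median deviation of 0.31, initiation factors had -0.006 and elongation and termination factors -0.21. Biogenesis genes had 0.10 there, ribosome-associated genes 0.11 and mTOR pathway genes -0.05. RPL18, which the rule leaves out, was also highest in that library, at 617 CPM.

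In audiovisual against acoustic brains, where 68 of 75 ribosomal protein genes were below 0, so were 24 of 44 initiation factors, 6 of 11 elongation and termination factors, 37 of 69 biogenesis genes, 13 of 24 mTOR pathway genes and 4 of 5 ribosome-associated genes. The list medians were -0.016 for initiation factors, -0.024 for elongation and termination factors, -0.016 for biogenesis genes, -0.009 for mTOR pathway genes and -0.07 for ribosome-associated genes, against -0.003 for all genes. The mTOR pathway gene with the smallest p was TSC1, a brake on mTOR, with 11.5, 12.6 and 15.5 CPM in audiovisual brains and 21.6, 19.9 and 19.9 CPM in acoustic brains. These ranges were apart, with a log2 fold change of -0.63 (SE 0.16, edgeR adjusted p = 0.924). Of all genes, 5.18% were apart and lower in this comparison.

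EIF3F, a subunit of initiation factor 3, had the smallest p of any listed gene. It had 26.2, 68.7 and 72.9 CPM in visual brains and 396, 480 and 688 CPM in dark contrast brains, a log2 fold change of -3.22 (SE 0.69, edgeR adjusted p = 0.768). The visual libraries were also below the 627, 332 and 538 CPM of blank contrast brains. Acoustic 2 and audiovisual 2 were low as well, with 79.2 and 132 CPM, beside 539 and 571 CPM in the other acoustic and 685 and 557 CPM in the other audiovisual libraries. PDPK1, the kinase upstream of S6 kinase, had 142, 135 and 133 CPM in dark contrast brains and 162, 162 and 174 CPM in blank contrast brains. Its groups did not overlap, and the log2 fold change was -0.28 (SE 0.082, edgeR adjusted p = 0.839). Among biogenesis genes, POLR1D, a subunit of RNA polymerases I and III, had 11.7, 16.8 and 12.6 CPM in visual brains and 24.1, 20.2 and 21.6 CPM in dark contrast brains. All visual values were below, and the log2 fold change was -0.68 (SE 0.20, edgeR adjusted p = 0.903). EEF1E1, a multisynthetase complex subunit named for elongation factor 1, had 17.2, 17.9 and 18.4 CPM in acoustic brains and 29.1, 26.9 and 26.8 CPM in blank contrast brains. These groups were apart as well, with a log2 fold change of -0.63 (SE 0.19, edgeR adjusted p = 1.0). None of these genes passed the threshold over all genes. They were named for the smallest p in their lists, so ranges apart follow largely from that choice and add no support. Among all genes, 5.39% were apart and lower in visual against dark contrast brains. The share was 5.58% in dark against blank contrast brains and 4.89% in acoustic against blank contrast brains.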

How the data were processed

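Whole-brain RNA of 15 samples was sequenced as paired reads of 150 bases, per the labels. The authors deposited estimated counts per assembled transcript feature, not normalized, and FPKM; 57.4% of the estimated counts were whole to within 1e-06. No source used here names the aligner, assembler or counter. The lowest deposited FPKM is 0.31, so features at 0 in a library were not analysed here. Estimated counts were summed per Swiss-Prot symbol (ignoring case; features without a symbol stayed separate) and rounded. Genes with a mean summed FPKM of at least 1 (34978) were scaled by TMM and fitted with edgeR 4.0.16 (glmQLFit, R 4.3.3) over all 5 groups at once, which left 10 residual degrees of freedom; the common biological coefficient of variation was 0.305. Benjamini-Hochberg adjustment ran over all genes within each comparison. Each SE was taken as the absolute log2 fold change over the root of the F statistic. Log2 CPM used a prior count of 2. DESeq2 1.42.0 and limma 3.58.1 on log2(FPKM + 1) were alternatives. The code was tested on simulated data.

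The members, the pathway lists and the tests were chosen with earlier results of these data known. Genes were named by rule: the smallest p in each comparison, the 8 most and 3 least abundant members, the 4 most and 4 least variable, the stalk genes, RPS6, the paralogs and up to 2 genes per pathway list. Members listed because their ranges were apart or their unadjusted p was under 0.05, and examples of high values in dark contrast 1 and of divided features, were chosen after their values were seen. A few genes of the standard list are not reported by name here, also where the rule would name them; their values enter the counts and medians.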

Additional observations from a re-analysis of the deposited data

How the results depend on the processing

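With 0 members called by edgeR in each comparison, 0 were called in any of 27 alternative settings, which include median-of-ratios scaling, TMM without ribosomal protein genes, no filter, a filter of FPKM 1 in 3 or more libraries, DESeq2, limma with a pseudocount of 1 or 0.1, symbols as written, features not summed, only the compared groups, and each of the 15 libraries left out. The smallest adjusted p of any member was 0.248 (DESeq2, RPL39 in visual against dark contrast; 0.248 to 0.999 over its settings). No fold change of a member named for the smallest p or an unadjusted p under 0.05 changed sign in the settings that sum features per gene. The members' median moved by more than the pooled SD of library medians (0.125) in 4 cases, each without dark contrast 1. It went to 0.095 for acoustic, 0.065 for visual and -0.008 for audiovisual brains, each against dark contrast. For dark against blank contrast it went to -0.079. That SD is widened by the dark contrast group itself, with 0.226, against 0.025 to 0.13 in the other groups. Moves under it also mattered. Without dark contrast 2 the median was -0.151 for acoustic and -0.234 for audiovisual against dark contrast brains, and single libraries turned the direction of other comparisons. Removing each library's length trend was chosen after the data were seen. With the trend removed, 41 of 75 members were below 0 in visual against dark contrast brains, against 48.7% of all genes. The count was 46 in acoustic against dark contrast brains (50.0% of all genes) and 38 in acoustic against visual brains (51.4%). It was 51 for stimulus against contrast groups (48.9%) and 63 in audiovisual against acoustic brains (48.2%). The median of audiovisual against acoustic brains stayed between -0.102 and -0.055 in the settings that keep all libraries. The labels do not state that sample numbers pair the samples. Same-numbered pairs had correlations of -0.0419 to 0.0416 (0 of 30 over 0.1), and different-numbered pairs -0.0742 to 0.0464. Low correlations over all genes cannot show that no pairing exists. The replicate block left 0 members called. With 3 libraries a group, even differences of several times their SE were not called in single genes. EIF3F in visual against dark contrast brains had -3.22 (SE 0.69, edgeR adjusted p = 0.768). The median SE of members was 0.124, so the 0 calls do not exclude differences of that size or well above it.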
